A study of Mus musculus with 30 samples.

Results

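The 32 genes described here are Trp53, which encodes the tumour suppressor p53, and 31 genes listed as its transcriptional targets. They were taken by symbol from a list, and each matched 1 of the 78334 gene identifiers in the count table. RNA was sequenced from 30 libraries in 9 groups of cultured mouse cells labelled aortic smooth muscle cells, with no strain or genotype given, kept serum-free for 48 h and transfected for at least 24 h. The sample titles call the cells murine, while the growth protocol speaks of mouse and rat cells without saying which library is which. The study lowered or raised the long noncoding RNA CASC15 and treated cells with growth or contractile signals. Run 2 held an antisense control (a control GapmeR, an oligonucleotide that recruits RNase H to its target; 2 libraries), total CASC15 knockdown (2), an overexpression control, called plasmid control here (3), and total CASC15 overexpression from a plasmid (3). Run 3 held 5 groups of 4 libraries: knockdown control untreated, knockdown control with human angiotensin II at 10 ng/ml for 24 h, knockdown control with human PDGF-BB at 10 to 30 ng/ml for 24 h, long CASC15 knockdown untreated, and long CASC15 knockdown with angiotensin II. The protocol describes GapmeR and plasmid transfection and also an siRNA control, and the agent is named per library only for the antisense control. What "total" and "long" mean in terms of CASC15 transcripts is not stated, and no knockdown cells received PDGF-BB. A batch tag, P16 to P19, runs with the replicate number, so each batch holds at most 1 library of a group, and nothing in the labels says that replicates came from separate animals or cultures. P-values then measure the spread between these libraries, which may be technical.

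p53 is a transcription factor that is made continuously and kept scarce by the ubiquitin ligase Mdm2. DNA damage, oncogene activity and other stresses free it from Mdm2, and it then binds response elements near its targets. These include Cdkn1a, whose product p21 inhibits cyclin-dependent kinases and halts the cell cycle, death genes such as Bax, Bbc3 (PUMA), Pmaip1 (NOXA) and Fas, repair genes, and Mdm2 itself, which closes a negative feedback loop. In vascular smooth muscle p53 is known for restraining proliferation and for its part in senescence and apoptosis in diseased arteries. Many of the targets also answer to other transcription factors, so their RNA levels are not a readout of p53 alone.

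A p53 response element is made of 2 half-sites of 10 bases, separated by a short gap or none. Promoter windows of 300 bases, 250 before to 50 after a transcription start, were available from RefSeq on mouse build GRCm38.p6 for 24 of the 32 genes, in 32 windows. The half-site, named here only as the p53 response element half-site and searched with no mismatch (its pattern reads the same on both strands), was found in 10 of the 32 windows, 31.2%, against 8.36% of 32851 windows of all genes. Both half-sites, with a gap of at most 1 base and at most 2 mismatches, were found in 2 windows of the list, 6.25%, against 0.32% of all windows; these 2 belong to Cdkn1a and Bax. The letters below are shown because they include the 2 full matches and the half-sites before the p53 gene itself and its feedback genes Mdm2 and Ccng1. They run 5′ to 3′ on the strand of the gene, upstream of 1 of its starts, with the bases of the half-sites in capitals. The capitals include the mismatched bases of the full sites, 1 in Cdkn1a and 2 in Bax, and those of the 3 single half-sites hold no mismatch. The matches begin 51 (Cdkn1a), 201 (Bax), 75 (Trp53), 186 (Mdm2) and 185 (Ccng1) bases before the transcription start of their own window. Cdkn1a has 2 windows, and its full match was counted in only 1 of them. The start of that window lies at the upstream end of the annotated gene, which begins at 29090976. A match of letters is not evidence of binding.
Cdkn1a (chr17:29090908-29090967, forward strand): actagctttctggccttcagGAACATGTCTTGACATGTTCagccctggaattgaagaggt
Bax (chr7:45467059-45467119, reverse strand): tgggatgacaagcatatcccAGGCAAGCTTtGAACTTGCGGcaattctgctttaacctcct
Trp53 (chr11:69580254-69580323, forward strand): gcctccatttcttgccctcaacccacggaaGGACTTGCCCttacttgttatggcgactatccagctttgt
Mdm2 (chr10:117710905-117710974, reverse strand): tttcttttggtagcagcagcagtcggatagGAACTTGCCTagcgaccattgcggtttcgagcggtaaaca
Ccng1 (chr11:40755432-40755501, reverse strand): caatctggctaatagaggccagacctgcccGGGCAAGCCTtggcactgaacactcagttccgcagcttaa

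All 32 genes passed the filter on low counts in both runs, among 15350 genes tested in run 2 and 15103 in run 3. Libraries held 18007199 to 21881959 counts in run 2 and 15771490 to 30362047 in run 3, and the listed genes had between 30 (Plk3) and 22667 (Ccng1) counts in a library. The target RNA, read as 2610307P16Rik, stood at 7.66 and 6.37 CPM (counts scaled to a common library size) in the antisense control and at 9.73 and 8.29 CPM in the libraries labelled total knockdown, so it was not lower there (log2 fold change 0.36, SE 0.33, adjusted p = 0.739). In those 2 libraries the level does not check the label. Overexpression raised it (log2 fold change 6.79, SE 0.31, adjusted p = 1.88e-05). It fell by long knockdown in untreated cells (log2 fold change -0.95, SE 0.19, adjusted p = 0.000832) and in treated ones (log2 fold change -0.79, SE 0.19, adjusted p = 0.00372). The fall was not limited to knockdown. In control cells the target RNA was also lower with PDGF-BB than without it (-0.62 on the log2 scale, adjusted p = 0.0101). Of 8 smooth muscle markers, Cald1 (417 to 854.8 CPM), Acta2 (96.5 to 440.7 CPM) and Tpm2 (28.9 to 62.8 CPM) were present in all 30 libraries, and Myl9 ranged from 1.95 to 22.7 CPM. The more specific Tagln reached at most 3.45 CPM, Cnn1 0.224 CPM (0 in 17 of 30 libraries), Myh11 6.67 CPM and Lmod1 1.78 CPM. Of 4 fibroblast markers, Col1a1 (1275 to 3635 CPM) and Dcn (562.6 to 2180.0 CPM) were high, Pdgfra ranged from 1.83 to 65.7 CPM and Lum from 0 to 5.18 CPM. Among endothelial markers Cdh5 was at 0 in 28 of 30 libraries, and Vwf reached 6.14 CPM. Among leukocyte markers C1qa was at 0 in all 30 libraries and Ptprc in 26, Csf1r reached 4.52 CPM, and Cd14 was present in all 30 at 7.85 to 21.2 CPM. In bulk RNA a lower value can come from fewer cells of a type or from less RNA per cell, and these cannot be told apart.

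Every adjusted p comes from the quasi-likelihood test of edgeR, adjusted by Benjamini and Hochberg's method over all genes tested in a comparison, and a gene is said to rise or fall, or to be called, only at an adjusted p under 0.05. "With the batch as a block" means a fit with the batch tag added as a term. Per kilobase of merged exon in untreated run 3 controls, Ephx1 (264.3 CPM per kb), Ccng1 (166.3) and Phlda3 (91.5) had the highest levels of the 32, and Pidd1 (1.41) and Plk3 (1.45) the lowest. Trp53 and Mdm2 lay between them at 38.9 and 33.3 CPM per kb. Exons of Ddb2 and Acp2 overlap over 23.8% of Ddb2, those of Pltp and Ctsa over 19.3% of Pltp, and those of Bax and Gm45808 over 12.2% of Bax. Without a stated strand setting, reads there cannot be assigned with certainty.

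**Figure D1:**
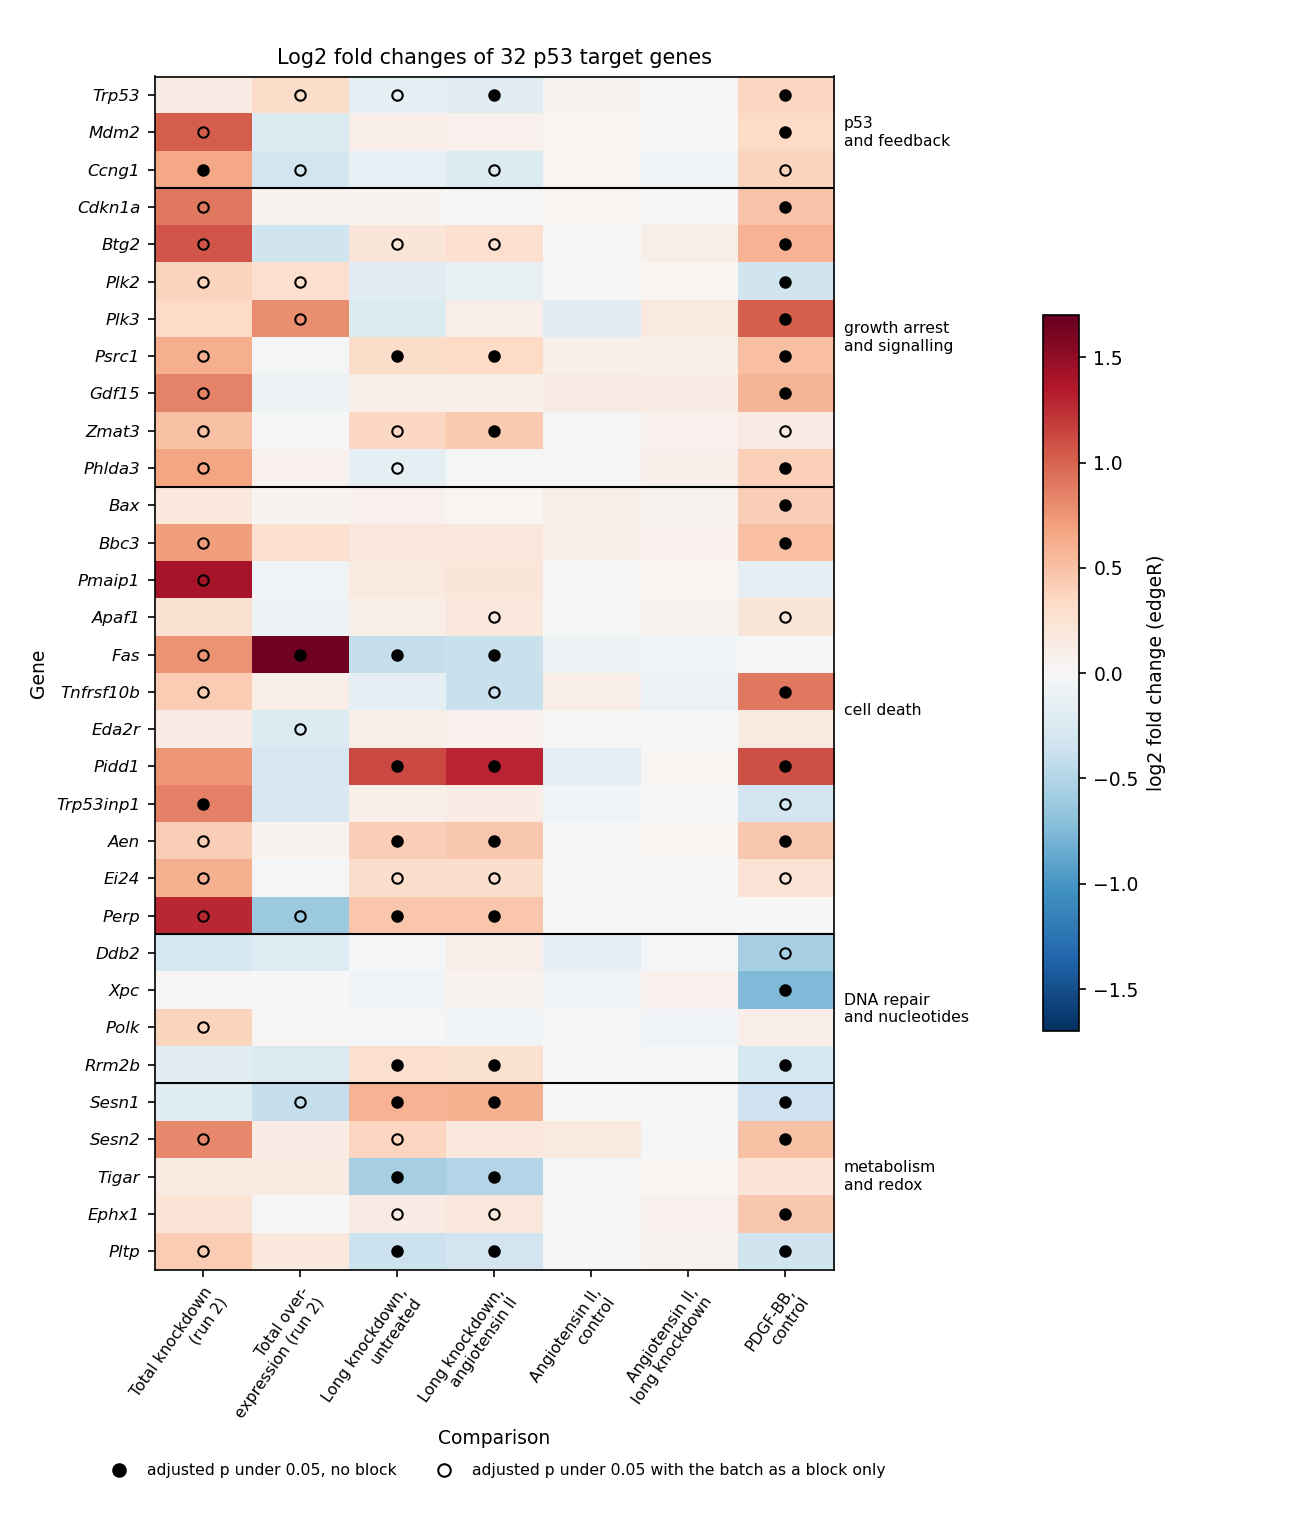
Log2 fold changes (colour) of the 32 genes, grouped by role, in 7 of the comparisons; filled circles mark an adjusted p under 0.05 in the fit without a block, open circles a call made only with the batch as a block. The PDGF-BB column holds 20 filled circles and both angiotensin II columns hold none.

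In the libraries labelled total CASC15 knockdown, most of the listed genes stood higher than in the antisense control, and 2 of them passed the test. These were Trp53inp1, which encodes a nuclear protein linked to p53-dependent death and autophagy, and Ccng1 (cyclin G1), which recruits a phosphatase to Mdm2. 29 of the 32 log2 fold changes were positive and the median was 0.47, against 0.01 over all 15350 genes tested. The 2 calls are 6.25% of the list, and 2.07% of all genes were called. With the batch as a block, 20 of the 32 were called, all higher, while 14.4% of all genes were called. Without the block, the member count was 10 by DESeq2 (719 of all genes), 14 with no filter on low counts (1325), 17 without batch P19 (1041) and 14 in a fit of the compared groups alone (1079). Neither compared group holds a library of batch P19, so leaving that batch out removed only plasmid control and overexpression libraries. Since the target RNA was not lower in the libraries labelled total knockdown, the direction applies to them as labelled.

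Trp53inp1 stood at 171 and 138 CPM in the antisense control and at 282 and 279 CPM in the libraries labelled total knockdown. Both of the latter lay above both controls (log2 fold change 0.86, SE 0.14, adjusted p = 0.0174). Ccng1 stood at 634 and 557 CPM in the antisense control and at 877 and 995 CPM in the libraries labelled total knockdown, again without overlap (log2 fold change 0.65, SE 0.14, adjusted p = 0.0446). Neither call held when any 1 of the 4 libraries was left out: adjusted p was 0.0687 to 0.189 for Trp53inp1 and 0.0943 to 0.428 for Ccng1, with log2 fold changes of 0.70 to 1.01 and 0.55 to 0.74. No member was then called in any of those 4 fits, in which the lone library of a group is assumed to vary like the other groups of the run, and 4 to 188 of all genes were called. With the block, 8 to 16 members and 510.0 to 1594 of all genes were called. The fewest members were called without antisense control replicate 2 (8, with 647 genes) or replicate 2 labelled total knockdown (9, with 510.0 genes).

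Trp53 RNA itself stood at 228 and 202 CPM in the antisense control and at 240.2 and 228 CPM in the libraries labelled total knockdown (log2 fold change 0.12, SE 0.11, adjusted p = 0.736). Mdm2 stood at 149 and 143 CPM in the antisense control and at 253 and 342 CPM in the libraries labelled total knockdown, both of which were higher. Its change did not pass edgeR's test in the filtered fit of all run 2 libraries without the block (log2 fold change 1.03, SE 0.26, adjusted p = 0.0868), and did with the block (adjusted p = 0.000346) or by DESeq2 without it (0.00828). Without the block, edgeR also called Mdm2 with no filter on low counts (2.53e-06), without batch P19 (0.00797) and in a fit of the compared groups alone (0.00915). Cdkn1a showed the same pattern, at 179 and 134 CPM in the antisense control and 282 and 301 CPM in the libraries labelled total knockdown (log2 fold change 0.90, SE 0.24, adjusted p = 0.105; 0.000538 with the block and 0.0172 by DESeq2 without it). Without the block, edgeR called Cdkn1a with no filter on low counts (7.02e-05), without batch P19 (0.00942) and in a fit of the compared groups alone (0.0117). The largest log2 fold changes, named after their values were seen, were those of Pmaip1 (1.40), which encodes a BH3-only death protein, Perp (1.28), a desmosome protein, and Btg2 (1.07), an antiproliferative cofactor of RNA deadenylation. In the filtered fit of all run 2 libraries without the block, edgeR called none of the 3 (all 3 at an unadjusted p under 0.05), and DESeq2 called Perp (adjusted p = 0.00765). All 12 death genes and all 8 growth arrest and signalling genes had positive values, and 8 and 7 of them were called with the block. The negative values were those of Ddb2 (-0.29), a sensor of ultraviolet DNA damage, Sesn1 (-0.20) and Rrm2b (-0.18), a ribonucleotide reductase subunit. 1 of the 4 repair and nucleotide genes, the translesion polymerase Polk, was called with the block.

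Of 31 further p53 targets, 3 (9.68%, against 2.07% of all genes) rose and none fell in the libraries labelled total knockdown, led by Cgref1 (1.66) and Zfp365 (1.14). With the block 12 (38.7%, against 14.4%) were called, all higher. None of 23 tested regulators of p53 was called (edgeR; 1 at an unadjusted p under 0.05; DESeq2 0), and 2 (8.7%) were with the block, Chek1 higher and Trp63 lower. None of 20 cell cycle genes that p21 represses through the DREAM complex was called either (edgeR; 1 at an unadjusted p under 0.05; DESeq2 0), although all 20 values were positive, with a median of 1.57, and 18 were called higher with the block. So the target genes and these cell cycle genes stood higher in the same libraries: the mean log2 level of the cell cycle genes was 2.21 and 2.51 in the controls and 3.37 and 3.93 in the libraries labelled total knockdown. The summed level of the 5 endothelial markers was 2.81 and 3.90 CPM in the controls and 6.02 and 9.99 CPM in the libraries labelled total knockdown. Of these markers 2 were tested and neither was called without the block (edgeR; 2 at an unadjusted p under 0.05; DESeq2 0), both, Pecam1 (adjusted p = 0.0261) and Vwf (0.0163), were called higher with it, and Cdh5 was at or near 0. The 5 leukocyte markers summed to 8.001 to 9.89 CPM and 11.6 to 15.9 CPM, and Csf1r, 1 of 2 tested, was called higher. The 4 epithelial markers, mostly Cdh1, summed to 45.1 and 44.2 CPM and to 72.5 and 95.5 CPM, and 1 of 2 tested was called higher with the block. Of 7 smooth muscle markers tested, Myh11 was called higher (2.47). The 4 fibroblast markers had negative values, and 2 (Pdgfra and Lum) were called lower with the block. The part of these levels in the result was not tested.

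**Figure D2:**
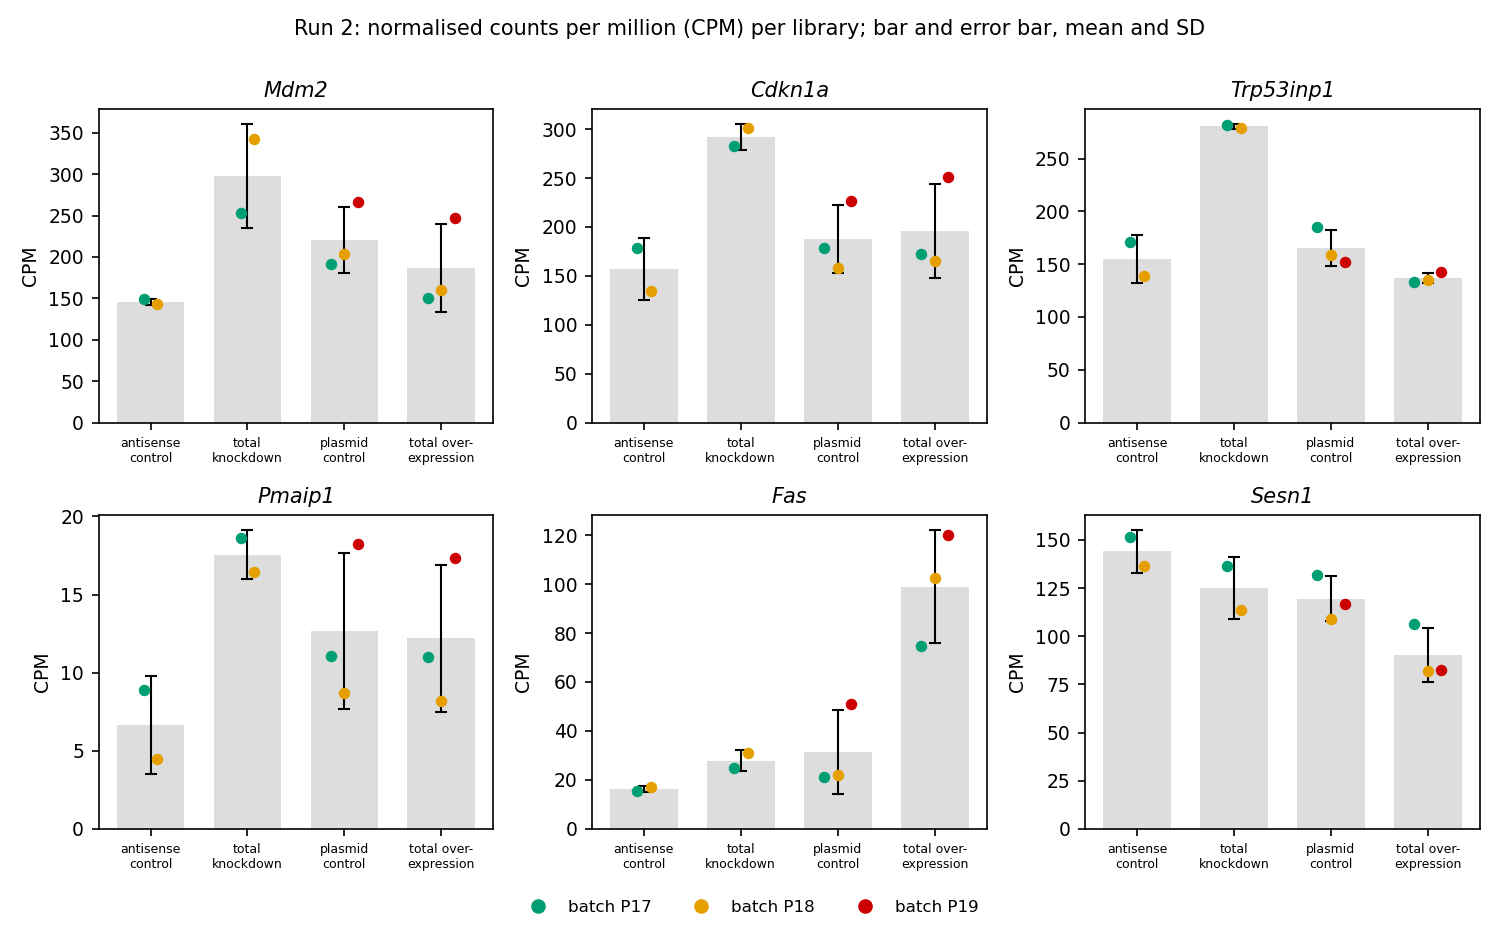
CPM per library (points, coloured by batch) of 6 genes in the 4 groups of run 2; bars are means and error bars SD. Mdm2, Cdkn1a, Trp53inp1 and Pmaip1 do not overlap between antisense control libraries and those labelled total knockdown, and Fas does not between plasmid control and overexpression.

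Total CASC15 overexpression left most of the list near the plasmid control, with 1 rise, that of the death receptor gene Fas. Median log2 fold change was -0.01 over the 32 genes, 16 of which were positive, and 0.00 over all genes tested. The single call is 3.12% of the list, and 1.65% of all genes were called. Fas stood at 21.4, 21.8 and 51.1 CPM in the plasmid controls and at 74.5, 102 and 120.1 CPM with overexpression. Its plasmid control of batch P19 was the highest of the 3, and all overexpression libraries lay above it (log2 fold change 1.66, SE 0.34, adjusted p = 0.0489). The call was lost without plasmid control replicate 1 (adjusted p = 0.165) or 2 (0.176), without overexpression replicate 1 (0.0664), 2 (0.162) or 3 (0.111), and the member count was then 0, with 86 to 238 of all genes called. It was also lost with RLE scaling (0.0509) and in a fit of the compared groups alone (0.162). When 1 library was left out, the log2 fold change stayed between 1.44 and 2.20.

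With the batch as a block, 8 of the 32 genes were called with overexpression, 4 higher and 4 lower, while 17.7% of all genes were called. The higher ones were Fas, Trp53, Plk2 and Plk3, the last 2 being polo-like kinases. The lower ones were Perp, Sesn1, Ccng1 and the ectodysplasin receptor gene Eda2r. Leaving out 1 library gave 2 to 8 calls: 2 without overexpression replicate 1 (1536 of all genes, against 2721 with every library), 3 without plasmid control replicate 1 (1311) and 5 without plasmid control replicate 2 (1284). Trp53 stood at 215, 213 and 224 CPM in the plasmid controls and at 278, 255 and 275 CPM with overexpression. The groups did not overlap, and edgeR did not call the difference without the block (log2 fold change 0.31, SE 0.09, adjusted p = 0.149) but did with it (0.0109), as did DESeq2 without it (0.0105). Cdkn1a stood at 178, 158 and 226 CPM and at 172, 165 and 251 CPM, close to each other in each batch (log2 fold change 0.06, SE 0.20, adjusted p = 0.92; 95% interval -0.38 to 0.50). Mdm2 stood at 191, 203 and 266 CPM and at 151, 161 and 247 CPM (log2 fold change -0.24, SE 0.21, adjusted p = 0.638). In both genes the library of batch P19 was the highest of its group. None of 23 regulators, 31 further targets and 20 cell cycle genes was called (edgeR; 2, 4 and 1 at an unadjusted p under 0.05; DESeq2 0, 2 and 0). With the block, 4 of 23 regulators (3 higher, 1 lower; 17.4%), 6 of 31 further targets (5 higher, 1 lower; 19.4%) and 18 of the 20 cell cycle genes (all higher; 90%) were called, against 17.7% of all genes. Their mean log2 level was 2.99 to 5.12 in the plasmid controls and 3.75 to 5.65 with overexpression. The 5 leukocyte markers summed to 10.5 to 11.3 CPM in the plasmid controls and 17.9 to 21.5 CPM with overexpression, and Cd14, 1 of 2 tested, was called higher (both with the block). Epithelial markers summed to 44.6 to 64.1 CPM and 66.4 to 150.2 CPM (1 of 2 called, higher, with the block). Of 7 smooth muscle markers Myl9 was called lower (-1.30), and Cald1 too with the block. Of 4 fibroblast markers none was called without the block (edgeR; 0 at an unadjusted p under 0.05; DESeq2 0), and with it Pdgfra was called higher (0.75) and Lum lower (-1.35). The part of these levels in the result was not tested.

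The 2 kinds of control, plasmid and antisense, differed in none of the 32 genes by edgeR (2, Mdm2 and Fas, at an unadjusted p under 0.05; DESeq2 0; 0 with the block). With no filter on low counts edgeR called 3 of them, Mdm2 included (adjusted p = 0.013), and 1106 of all genes. Of all genes 1.18% were called, and 2.99% with the block. Mdm2 stood at 149 and 143 CPM in the antisense controls and at 191, 203 and 266 CPM in the plasmid controls, without overlap (log2 fold change 0.59, SE 0.24, adjusted p = 0.489; log2 fold change 0.39 and adjusted p = 0.0974 with the block). Values for Trp53 (log2 fold change 0.01, SE 0.10, adjusted p = 0.968) and Cdkn1a (log2 fold change 0.26, SE 0.22, adjusted p = 0.68) overlapped between the controls. 26 of the 32 values were positive in the plasmid controls, with a median of 0.20 (21 and 0.11 with the block), and the antisense control holds no library of batch P19. Of the pathway lists, the regulator gene Daxx was called (1.15; DESeq2 2 of 23), none of 31 further targets (edgeR; 4 at an unadjusted p under 0.05; DESeq2 0) and none of 20 cell cycle genes (edgeR; 11; DESeq2 2), of which 12 were called higher with the block. The regulator gene Pml and the further target Ckap2 were also called higher with it.

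Long CASC15 knockdown shifted the list in both directions. Of the 32 genes, 6 rose and 3 fell in untreated cells, and 7 rose and 4 fell under angiotensin II. These 9 and 11 genes are 28.1% and 34.4% of the list, and 25% and 26.7% of all 15103 genes were called, so in number the list stood close to the whole transcriptome. By direction, 12.3% of all genes were higher and 12.8% lower in untreated cells, and 13.4% and 13.3% with angiotensin II. The median over the list was 0.10 and 0.11, and 0.02 and 0.01 over all genes. With the block 16 genes (11 higher, 5 lower) and 17 (11 higher, 6 lower) were called, while 40.6% and 41.3% of all genes were. Untreated, 16 were called without batch P19, along with 6062 of all genes (3783 with it). Under angiotensin II, 6 were called without control replicate 1 (3350.0 of all genes) or long knockdown replicate 3 (3184), against 4033 genes with every library. All 9 genes called in untreated cells were also called, in the same direction, among the 11 with angiotensin II (81.8% of the latter). Of all genes called untreated, 80% were called in the same direction with angiotensin II, 75.1% of those called there. These comparisons share no library but hold the same batches and come from 1 fit, so they are not independent. Deviations from group means in same-batch libraries, treated and untreated, correlated on average at 0.228 in control cells and 0.333 in long knockdown.

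The death gene Pidd1, which encodes a scaffold that activates caspase-2, showed the largest change of the list in both. It stood at 6.55, 5.68, 7.48 and 5.76 CPM in the untreated controls and at 13.9, 12.8, 13.4 and 15.1 CPM in untreated long knockdown. Every knockdown library was well above every control (log2 fold change 1.12, SE 0.11, adjusted p = 4.28e-07). With angiotensin II, Pidd1 stood at 5.44, 5.001, 5.96 and 6.598 CPM in the controls and at 15.4, 15.1, 12.4 and 13.6 CPM in long knockdown (log2 fold change 1.3, SE 0.11, adjusted p = 7.83e-08). Perp stood at 78.6, 71.8, 79.4 and 93.8 CPM in untreated controls and at 118, 101, 99.2 and 129 CPM in untreated knockdown (log2 fold change 0.47, SE 0.10, adjusted p = 0.00197). With angiotensin II the values of Perp were 78.4, 75.9, 71.9 and 92.98 CPM and 102, 103, 109 and 128 CPM (log2 fold change 0.47, SE 0.10, adjusted p = 0.00178). In both settings the groups of Perp did not overlap. Aen, an exonuclease gene of the apoptotic response, stood at 39.8, 45.6, 46.1 and 53.7 CPM in untreated controls and at 56.2, 63.99, 60.4 and 67.5 CPM in untreated knockdown, without overlap (log2 fold change 0.42, SE 0.09, adjusted p = 0.00173). Under angiotensin II its values were 44.6, 43.2, 44.2 and 52.4 and 61.9, 62.7, 64.9 and 63.7 CPM (log2 fold change 0.46, SE 0.09, adjusted p = 0.000826).

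Fas was the death gene that fell. It stood at 56.4, 53.6, 52.96 and 38.8 CPM in untreated controls and at 37.8, 35.3, 40.99 and 37.7 CPM in untreated knockdown, where the control of batch P19 lay within the knockdown values (log2 fold change -0.41, SE 0.12, adjusted p = 0.0182). With angiotensin II it stood at 57.8, 49.02, 43.5 and 39.2 CPM and at 34.5, 38.4, 35.1 and 38.5 CPM, with no overlap (log2 fold change -0.37, SE 0.12, adjusted p = 0.0301). The untreated call was lost without control replicate 1 (adjusted p = 0.0558) or knockdown replicate 2 (0.0582). The call with angiotensin II was lost without control replicate 1 (0.112) or 2 (0.0532) and without knockdown replicate 1 (0.0826) or 3 (0.0665). The remaining 8 of the 12 death genes, Bax and Bbc3 among them, were not called in either setting without the block. With it, Ei24 was called higher in both (adjusted p = 1.34e-05 untreated and 1.8e-05 with angiotensin II). Also with the block, Tnfrsf10b was called lower (0.000487) and Apaf1, which encodes the apoptosome scaffold, higher (0.00973) under angiotensin II.

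Among the metabolic genes, Sesn1 rose and Tigar fell. Sesn1, whose product restrains the growth kinase mTORC1, stood at 77.7, 75.96, 82.3 and 86.8 CPM in untreated controls and at 119.8, 127, 126 and 115 CPM in untreated knockdown (log2 fold change 0.60, SE 0.07, adjusted p = 7.1e-06). With angiotensin II it stood at 74.1, 80.2, 74.4 and 94.6 CPM in controls and at 123, 132, 128 and 111 CPM in knockdown (log2 fold change 0.61, SE 0.07, adjusted p = 5.57e-06). The groups stood apart in both settings. Tigar, a phosphatase gene that diverts glycolysis, stood at 21.5, 23.8, 21.7 and 22.2 CPM and 12.9, 15.1, 12.4 and 20.01 CPM untreated (log2 fold change -0.56, SE 0.14, adjusted p = 0.0047). Under angiotensin II it stood at 22.7, 22.4, 19.2 and 23.3 CPM and 14.8, 15.1, 13.4 and 18.6 CPM (log2 fold change -0.50, SE 0.14, adjusted p = 0.0104). Its knockdown library of batch P19 was the closest to the controls in both. Pltp, which encodes a lipid transfer protein and shares exon bases with Ctsa, stood at 164, 179, 152 and 159 CPM and 122, 113, 116 and 158 CPM untreated, where the knockdown library of batch P19 overlapped the controls (log2 fold change -0.36, SE 0.11, adjusted p = 0.0191). The call was lost without control replicate 2 (adjusted p = 0.0566) and without knockdown replicate 1 (0.0516), 2 (0.0719) or 3 (0.0599). With angiotensin II it was also called lower (log2 fold change -0.32, adjusted p = 0.0353). That call was lost without control replicate 1 (0.0889) or 4 (0.107), without knockdown replicate 1 (0.0926), 2 (0.0951) or 3 (0.128), with no filter on low counts (0.0641) and in a fit of the compared groups alone (0.0619).

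Neither Cdkn1a nor Mdm2 was called in either setting, and Trp53 was lower by a small amount. Trp53 stood at 153, 158, 164 and 156 CPM in untreated controls and at 148, 138, 128 and 151 CPM in untreated knockdown. These values did not overlap, and edgeR did not call the difference without the block (log2 fold change -0.16, SE 0.06, adjusted p = 0.057) but did with it (0.0123), as did DESeq2 without it (0.028). Without the block, edgeR called it with RLE scaling (0.0492), without batch P19 (0.00868) and without knockdown replicate 4 (0.0258). With angiotensin II, Trp53 stood at 173, 163, 157 and 155 CPM in controls and at 151, 134, 138 and 146 CPM in knockdown and fell (log2 fold change -0.19, SE 0.06, adjusted p = 0.0222). That call was lost without control replicate 1 (0.0787) and without knockdown replicate 2 (0.0812) or 3 (0.0674), with no filter on low counts (0.116) and in a fit of the compared groups alone (0.0578). Cdkn1a stood at 140.2, 149, 156 and 180.0 CPM and 140.4, 135, 155 and 219 CPM untreated, overlapping (log2 fold change 0.05, SE 0.16, adjusted p = 0.843; 95% interval -0.28 to 0.38). With angiotensin II it stood at 156, 146, 150.5 and 188 CPM and 136, 135, 149.6 and 214 CPM (log2 fold change -0.01, SE 0.16, adjusted p = 0.96). Mdm2 overlapped too, at 167, 156, 161 and 193 CPM and 159.6, 178, 184 and 208 CPM untreated (log2 fold change 0.11, SE 0.10, adjusted p = 0.447) and under angiotensin II at 171, 165, 166 and 193 CPM and 157, 182, 189 and 201 CPM (log2 fold change 0.07, SE 0.10, adjusted p = 0.634).

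Psrc1 was the arrest and signalling gene that rose in both settings; its product binds microtubules of the spindle. It stood at 30.1, 32.7, 30.2 and 33.99 CPM and 34.8, 39.4, 41.5 and 41.7 CPM untreated (log2 fold change 0.31, SE 0.08, adjusted p = 0.00654). With angiotensin II it stood at 34.6, 29.9, 36.3 and 33.6 CPM and 40, 42.2, 43.03 and 44.04 CPM (log2 fold change 0.33, SE 0.08, adjusted p = 0.00375). No knockdown library fell among the controls in either. Zmat3, an RNA-binding zinc finger gene, stood at 76.7, 84.8, 83.9 and 106 CPM in controls and at 92.2, 120.2, 120.4 and 146 CPM in knockdown under angiotensin II, where the groups overlapped and the library of batch P19 was the highest of each (log2 fold change 0.45, SE 0.15, adjusted p = 0.0305). Its call was lost without control replicate 1 (0.101), 2 (0.0905) or 3 (0.0788) and without knockdown replicate 2 (0.0638), 3 (0.0676) or 4 (0.103), and with no filter on low counts (0.0959). Rrm2b was also called higher in both settings (0.27 untreated, 0.26 with angiotensin II), the only one of 4 repair and nucleotide genes. Its call was lost without control replicate 2 in untreated cells (adjusted p = 0.0507), and without control replicate 1 (0.0589) or knockdown replicate 3 (0.062) under angiotensin II. With the block, Btg2 and Ephx1 were called higher in both settings, Zmat3 and Sesn2 higher and Phlda3 lower in untreated cells, and Ccng1 lower under angiotensin II. Genes not called without the block had log2 fold changes between -0.23 (Plk3) and 0.36 (Sesn2) untreated and between -0.38 (Tnfrsf10b) and 0.30 (Ei24) with angiotensin II.

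**Figure D3:**
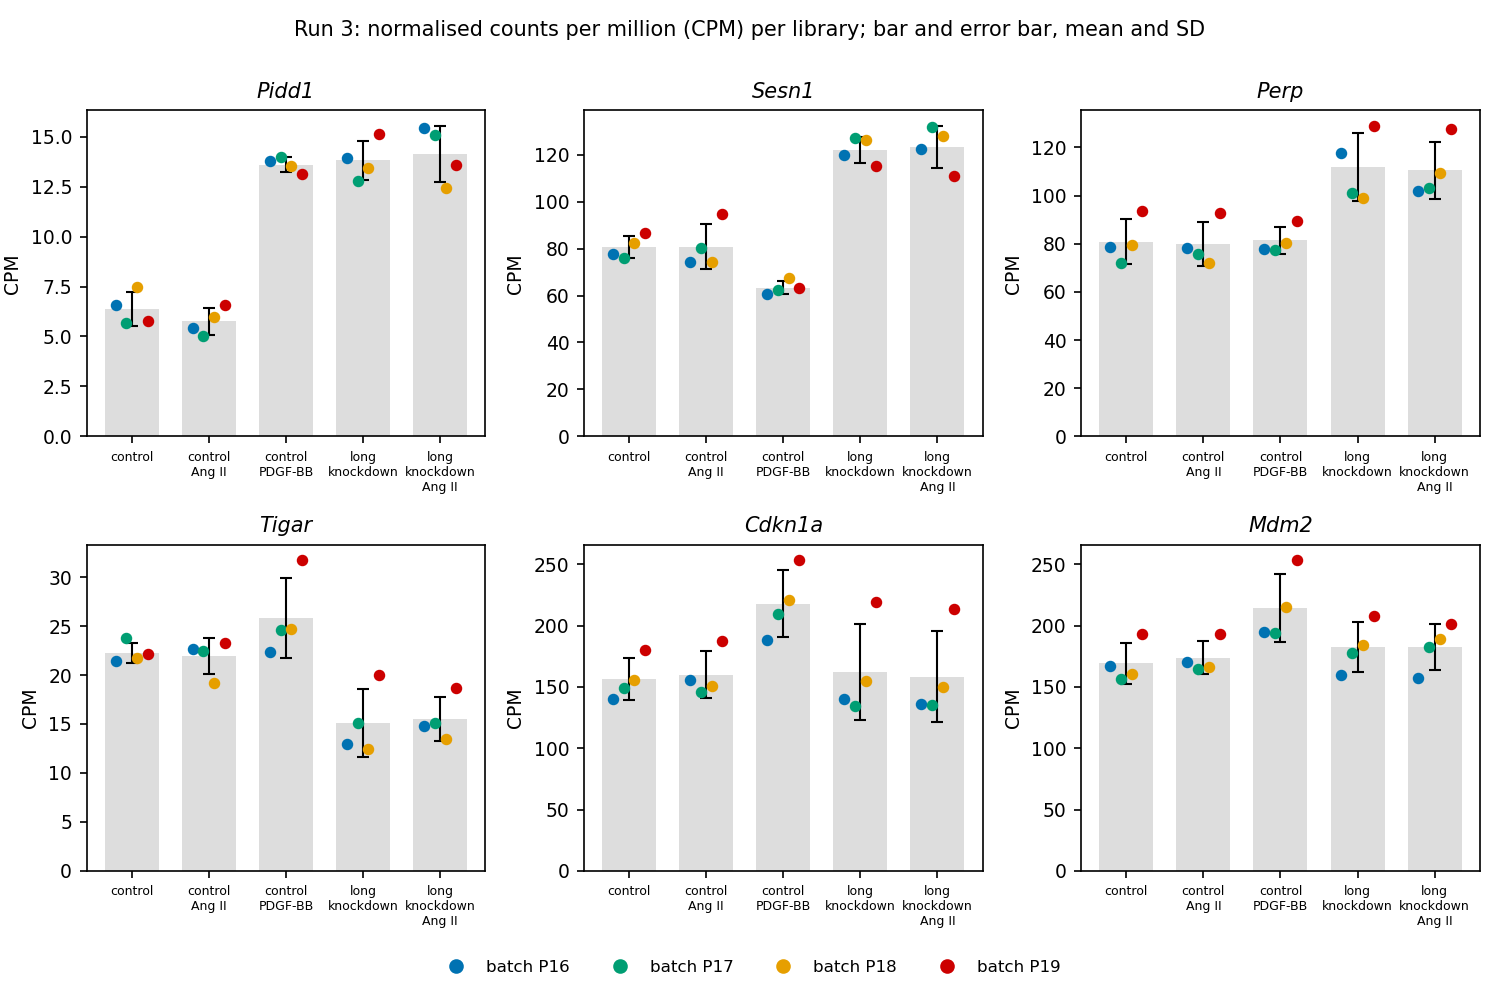
CPM per library (points, coloured by batch) of 6 genes in the 5 groups of run 3; bars are means and error bars SD. Pidd1 stands higher in PDGF-BB and both long knockdown groups, Sesn1 is higher in long knockdown and lower with PDGF-BB, and Cdkn1a and Mdm2 are higher with PDGF-BB than in untreated controls.

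Around the listed genes, long knockdown changed 5 of 23 regulators in untreated cells (21.7%, against 25% of all genes), 4 higher and 1 lower, with Cdkn2a (-0.67) and Crebbp (0.46) the largest. With angiotensin II it changed 8 (34.8%, against 26.7% of all genes), 7 higher and 1 lower, with Chek1 (-0.71) and Hipk2 (0.52) the largest. Of 31 further targets, 6 rose and 5 fell untreated (35.5% in all; Cyfip2 1.72, Cgref1 -0.95), and 7 rose and 4 fell with angiotensin II (also 35.5%; Cyfip2 2.13, Gadd45a 0.82). Of 20 cell cycle genes 3 fell untreated and 4 with angiotensin II (Cdc25c -2.02 and -2.13, Top2a -1.33 and -1.51), and 13 and 18 with the block. With the block, 11 regulators (47.8%) and 16 further targets (51.6%) were called in each setting, against 40.6% of all genes untreated and 41.3% with angiotensin II. The mean log2 level of the cell cycle genes was 2.99 to 4.05 in untreated controls and 1.91 to 3.58 in untreated knockdown. The 4 epithelial markers summed to 97.6 to 129.0 CPM in untreated controls and 36.6 to 69.9 CPM in untreated knockdown, nearly all of it Cdh1, and both tested markers fell in both settings; Epcam was at most 0.441 CPM. Of 4 fibroblast markers, Pdgfra (1.66) and Lum (2.06) rose and Col1a1 fell (-0.64) in untreated cells. The endothelial marker Vwf rose (2.10), 1 of 2 tested. Of 7 smooth muscle markers, Myh11 rose (3.73) and Myl9 (-1.79) and Tpm2 (-0.30) fell. With angiotensin II, 4 of 7 smooth muscle markers (1 higher, 3 lower), 2 of 4 fibroblast markers (1 higher, 1 lower), Vwf and Cd14 (both higher) were called. With the block, all 4 fibroblast markers were called in both settings (3 higher, 1 lower in each), as were Cald1 (lower) untreated and Tagln and Pecam1 (both higher) with angiotensin II. The part of these levels in the changes of the listed genes was not tested.

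Angiotensin II changed none of the 32 genes, whether in control cells, in long knockdown, or as a difference between those effects (edgeR; 0 at an unadjusted p under 0.05 in all 3; DESeq2 0). Of all genes, 0% were called in each of the 3 tests (156, 174 and 166 genes at an unadjusted p under 0.05). In control cells the log2 fold changes of the list ran from -0.17 to 0.17, and no 95% interval reached beyond -0.76 or 0.74. Trp53 changed by 0.04 (SE 0.06), Cdkn1a by 0.03 (SE 0.16) and Mdm2 by 0.04 (SE 0.10). In long knockdown the range was -0.10 to 0.17, with 0.01 for Trp53, -0.03 for Cdkn1a and 0.00 for Mdm2. The difference between both effects ran from -0.21 to 0.34 over the list (-0.03 for Trp53, -0.07 for Cdkn1a, -0.04 for Mdm2). None of 23 regulators, 31 further targets and 20 cell cycle genes was called in any of the 3 tests (edgeR; 0 at an unadjusted p under 0.05; DESeq2 0, with no adjusted p for 6 of the cell cycle genes).

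PDGF-BB, a growth factor that drives smooth muscle cells to divide, changed more of the list than any other comparison. In control cells 20 of the 32 genes were called, 15 higher and 5 lower, 62.5% of the list, while 43.6% of all genes were called, 23.6% higher and 20% lower. The median log2 fold change was 0.29 over the list and -0.02 over all genes. p53, Mdm2 and p21 RNA all rose, along with death, arrest and metabolic genes, while Xpc, Rrm2b and 3 genes of other roles fell. By role, 2 of 3 feedback genes rose, 6 of 8 arrest and signalling genes rose and 1 fell, 5 of 12 death genes rose, 2 of 4 repair and nucleotide genes fell, and 2 of 5 metabolic genes rose and 2 fell. With the batch as a block 26 of the 32 genes were called, 19 higher and 7 lower, 81.2% of the list against 54.5% of all genes. By role, these were all 3 feedback genes higher, 7 of 8 arrest and signalling genes higher and 1 lower, 7 of 12 death genes higher and 1 lower, 3 of 4 repair and nucleotide genes lower, and 2 of 5 metabolic genes higher and 2 lower. The block added 6 genes to the calls: Ccng1, Zmat3, Ei24 and Apaf1 (higher) and Trp53inp1 and Ddb2 (lower).

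Trp53 stood at 153, 158, 164 and 156 CPM in untreated controls and at 208, 193, 198 and 210.2 CPM with PDGF-BB. All 4 treated libraries were higher than all 4 controls (log2 fold change 0.36, SE 0.06, adjusted p = 4.76e-05). Mdm2 stood at 167, 156, 161 and 193 CPM in controls and at 195, 194, 215 and 253 CPM with PDGF-BB (log2 fold change 0.34, SE 0.10, adjusted p = 0.00831). Its lowest treated values lay just above the control of batch P19, and the call was lost without control replicate 2 (adjusted p = 0.0529) or PDGF-BB replicate 4 (0.0799). Cdkn1a stood at 140.2, 149, 156 and 180.0 CPM in controls and at 188, 209.6, 221 and 253 CPM with PDGF-BB, also without overlap (log2 fold change 0.48, SE 0.16, adjusted p = 0.0202). That call was lost without control replicate 1 (0.0726) or 2 (0.0665) or PDGF-BB replicate 4 (0.0989), and with no filter on low counts (0.0793).

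The largest rises were those of Pidd1, Plk3 and the TRAIL death receptor gene Tnfrsf10b. Pidd1 stood at 6.55, 5.68, 7.48 and 5.76 CPM in controls and at 13.8, 13.97, 13.5 and 13.1 CPM with PDGF-BB, the treated values being close to each other (log2 fold change 1.10, SE 0.11, adjusted p = 1.6e-07). Plk3 stood at 3.53, 3.95, 3.24 and 3.96 CPM in controls and at 7.85, 6.21, 7.32 and 8.35 CPM with PDGF-BB (log2 fold change 1.02, SE 0.16, adjusted p = 2.77e-05). Tnfrsf10b stood at 45.3, 39.8, 39.5 and 54.5 CPM in controls and at 77.5, 72.1, 79.1 and 106 CPM with PDGF-BB (log2 fold change 0.90, SE 0.21, adjusted p = 0.00228). None of the 3 overlapped between groups, and in Tnfrsf10b batch P19 was the highest library of each. The BH3-only gene Bbc3 stood at 4.75, 6.39, 6.18 and 4.74 CPM in controls and at 7.63, 7.75, 7.48 and 8.45 CPM with PDGF-BB (log2 fold change 0.51, SE 0.16, adjusted p = 0.0118). Its groups did not overlap, and its call was lost without control replicate 1 (0.0528). Pmaip1 (-0.16) and Fas (-0.04) were not called, with or without the block.

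Psrc1 stood at 30.1, 32.7, 30.2 and 33.99 CPM in controls and at 47.3, 47.96, 46.1 and 39.3 CPM with PDGF-BB, with no overlap (log2 fold change 0.51, SE 0.08, adjusted p = 3.02e-05). Btg2 stood at 26, 27.3, 32.1 and 44.5 CPM in controls and at 38.7, 46.7, 49.1 and 62.3 CPM with PDGF-BB, and the control of batch P19 lay among the treated values (log2 fold change 0.60, SE 0.21, adjusted p = 0.0315). Its call was lost without control replicate 1 (0.112), 2 (0.109) or 3 (0.0639) or PDGF-BB replicate 3 (0.0547) or 4 (0.147), and with no filter on low counts (0.108). Gdf15, which encodes a secreted stress cytokine, stood at 4.83, 5.04, 4.34 and 6.97 CPM in controls and at 9.09, 5.34, 8.38 and 9.06 CPM with PDGF-BB, with 1 treated library among the controls (log2 fold change 0.58, SE 0.18, adjusted p = 0.0135). Leaving out control replicate 1 (0.0516) or PDGF-BB replicate 1 (0.0535) or 4 (0.0612), or fitting the compared groups alone (0.0502), ended that call.

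Xpc, whose product starts global nucleotide excision repair, showed the largest fall. It stood at 51.5, 51.5, 53.3 and 45.5 CPM in controls and at 29.2, 32.5, 32.8 and 25.4 CPM with PDGF-BB. Every treated library was below every control (log2 fold change -0.75, SE 0.08, adjusted p = 6.38e-07). Rrm2b (-0.30), Sesn1 (-0.35), Pltp (-0.34) and Plk2 (-0.33) were the other called falls. The other called rises lay between 0.41 (Phlda3, an inhibitor of AKT) and 0.50 (Sesn2), with Bax, Aen and Ephx1 in between. Of these calls, those of Bax and Pltp were lost without PDGF-BB replicate 4 (adjusted p = 0.0522) and 3 (0.0563), and that of Plk2 without control replicate 3 (0.0671). Genes that were not called without the block ran from -0.57 (Ddb2) to 0.37 (Ccng1), and both of these were called with it (adjusted p = 0.000389 and 1.64e-05).

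In the wider pathway with PDGF-BB, 6 of 23 regulators rose and 4 fell (43.5% in all, against 43.6% of all genes), with the checkpoint kinase genes Chek1 (2.99) and Chek2 (0.94) the largest. Of 31 further targets 13 rose and 7 fell (64.5% in all), led by Ckap2 (2.83) and Cyfip2 (-2.54). With the block, 14 regulators (60.9%) and 25 further targets (80.6%) were called, against 54.5% of all genes. All 20 cell cycle genes rose, with a median of 3.48, Aurkb (3.92) and Bub1 (3.92) the most; p21 RNA and the cell cycle genes thus rose in the same libraries. The mean log2 level of the cell cycle genes was 2.99 to 4.05 in controls and 6.66 to 6.81 with PDGF-BB. The 4 epithelial markers, again mostly Cdh1, summed to 97.6 to 129.0 CPM in controls and 156.5 to 199 CPM with PDGF-BB, and Cdh1 was called higher. All 4 fibroblast markers were called: Pdgfra (-2.27), Lum (-2.37) and Dcn (-1.26) fell and Col1a1 rose (0.49). Of 7 smooth muscle markers, Acta2 (-0.94) and Cald1 (-0.37) fell and Tpm2 rose (0.50). The endothelial marker Pecam1 fell (-1.65), 1 of 2 tested. The part of these levels in the rise of the listed genes was not tested.

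PDGF-BB against untreated and long knockdown against control with angiotensin II share no library, and 7 listed genes were called in both. Aen, Pidd1 and Psrc1 rose in both and Pltp fell in both: 20% of the 20 called with PDGF-BB and 36.4% of the 11 called with long knockdown. Trp53, Sesn1 and Rrm2b moved in opposite directions. The target RNA, 2610307P16Rik, was called lower in both. Over all genes, 687 of those called in both had the same direction, 10.4% of the genes called with PDGF-BB and 17% of those called with long knockdown, and 1476 the opposite one. With the block 14 listed genes were called in both, 9 in the same direction (34.6% of the 26 and 52.9% of the 17 called) and Trp53, Ccng1, Sesn1, Tnfrsf10b and Rrm2b in opposite ones. Of all genes 4055 were then called in both, 1175 in the same direction (14.3% and 18.8%) and 2880.0 in opposite ones. No test of that difference was run. Fas, called higher with overexpression and lower in untreated long knockdown, was the gene called in both of those comparisons, which are in different runs. Of all genes, 111 were called in both and 93 of them in opposite directions. With the block, Trp53, Sesn1, Fas and Perp were called in both, all 4 in opposite directions, as were 1227 of 1524 genes. No listed gene was called both in the libraries labelled total knockdown and in untreated long knockdown, while 70 of all genes were, 25 in the same direction and 45 in opposite ones. With the block 10 listed genes were called in both, 7 in the same direction (35% of the 20 and 43.8% of the 16 called) and Phlda3, Fas and Pltp in opposite ones. Of all genes 1064 were then called in both, 263 in the same direction and 801 in opposite ones. No test of these differences was run.

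**Figure D4:**
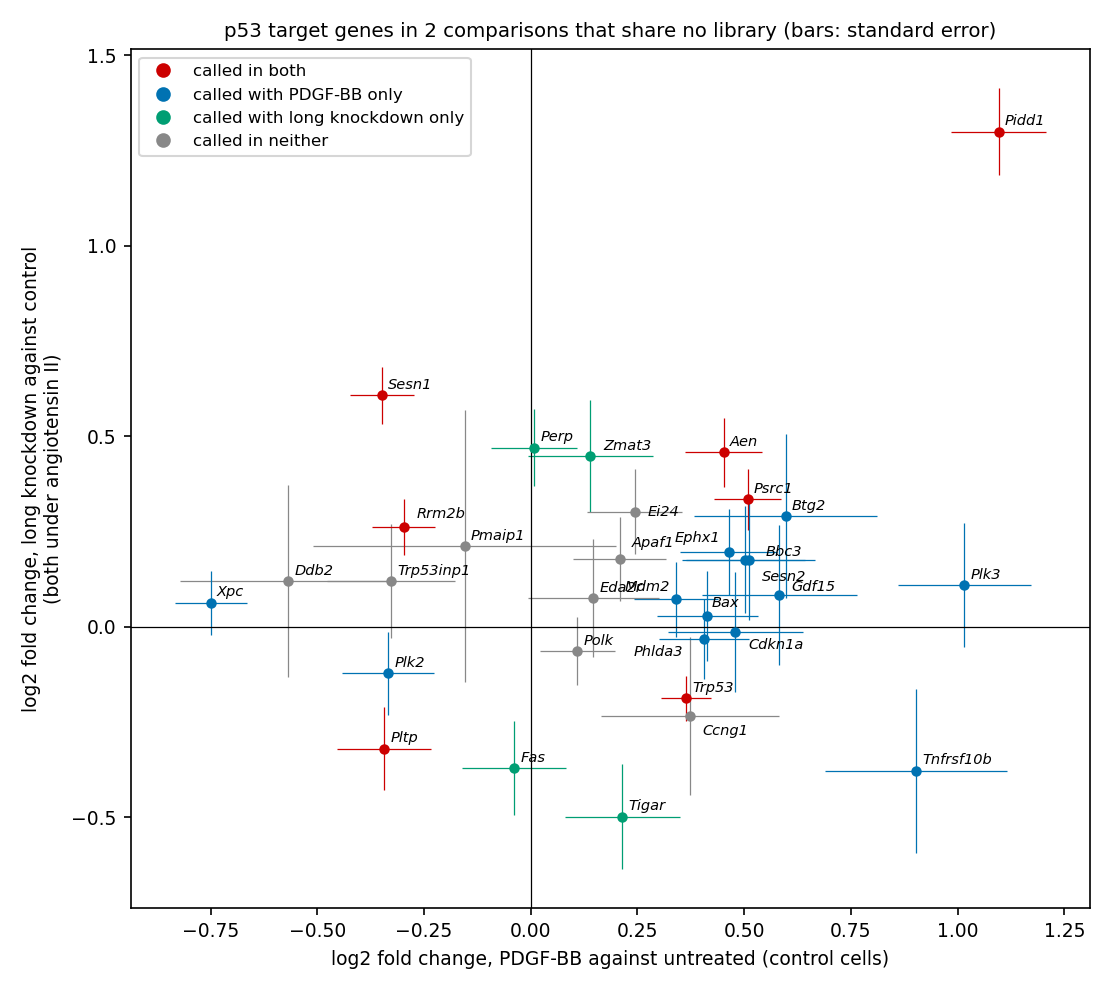
Log2 fold change with PDGF-BB (x axis) and in long knockdown with angiotensin II (y axis) for each of the 32 genes; bars are standard errors and colours mark where a gene was called. Pidd1 lies at the upper right, and Sesn1 and Rrm2b rose in long knockdown and fell with PDGF-BB.

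Many of these genes differed between batches. In run 3, 18 of the 32 (56.2%) were higher in the P19 library than in the mean of the other batches in all 5 groups, as were 21.4% of 15103 genes. Ddb2 and Xpc were lower in all 5 groups (6.25% of the list, 20.9% of all genes). The median log2 ratio of P19 to the other batches was 0.24 over the list and 0.00 over all genes. Pmaip1 had the largest mean ratio (0.82 on the log2 scale), followed by Ccng1 (0.58), Tnfrsf10b (0.57), Btg2 (0.57) and Cdkn1a (0.42). Cdkn1a in untreated long knockdown, for instance, stood at 140.4, 135, 155 and 219 CPM in batches P16 to P19. Trp53 RNA did not share this, with a mean ratio of 0.03 and 3 of 5 groups higher. Pidd1 (0.02) and Sesn1 (0.03), which rose with long knockdown, did not either. Cell cycle genes were also higher in P19, with Mki67 at a mean ratio of 1.84 and higher in 4 of 5 groups; their part in the pattern was not tested. Each batch holds 1 library of a group, so the 5 groups of a batch were compared by direction only.

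**Figure D5:**
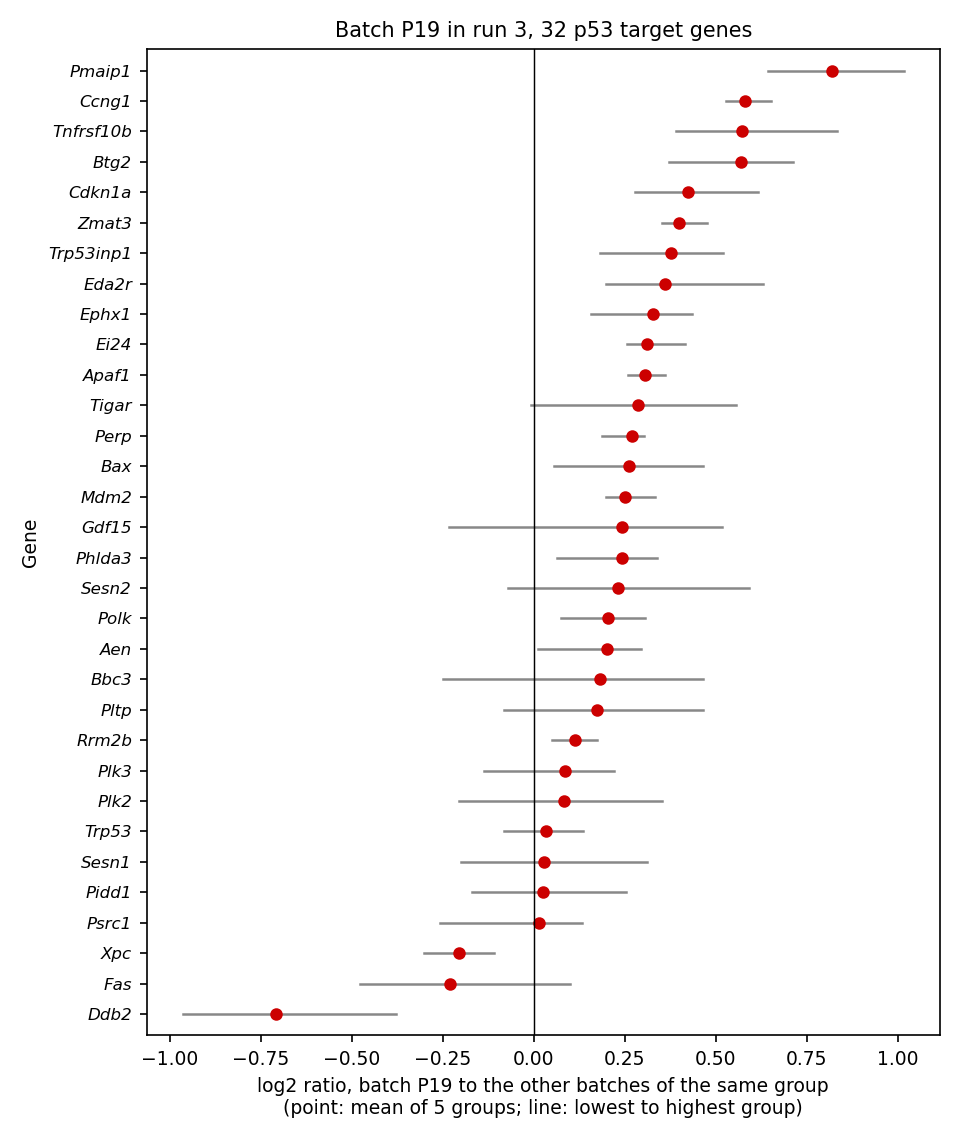
Log2 ratio of the P19 library to the mean of the other batches of its group in run 3, for each of the 32 genes; points are means over 5 groups and lines run from the lowest to the highest group. 18 genes have their whole line to the right of 0, and Ddb2 and Xpc have it to the left.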

How the data were processed

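The values are RSEM expected counts, deposited for each gene and library and not scaled to depth. The submitters' processing notes name STAR 2.7.11b, RSEM 1.3.1 and the builds GRCm39 and mm10; the strand setting is not given in the sources used here. Counts were rounded, and symbols came from a table of gene IDs and names, matched by Ensembl ID (51486 of 78334 identifiers, 98.7% of counts). Libraries were grouped by the submitters' library names, since the number after CASC in the treatment labels counts up from one replicate to the next. Runs 2 and 3 were fitted separately, all groups of a run together, with edgeR 4.0.16 (R 4.3.3): filterByExpr (minimum count 10, minimum total 15), TMM scaling, the robust quasi-likelihood test, two-sided, and Benjamini-Hochberg adjustment. Tested on simulated counts, the fitting script recovered 31.6% of genes changed 2-fold for total knockdown and 46.2% for overexpression. It recovered 72.5% for untreated long knockdown and 68.7% for PDGF-BB. CPM are rounded counts scaled to TMM library sizes, computed here; exon lengths and overlaps are from GENCODE on GRCm38, and promoters from RefSeq.

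The 9 comparisons are total knockdown, overexpression and plasmid against antisense in run 2, and long knockdown (untreated, angiotensin II), angiotensin II (control, knockdown), their interaction and PDGF-BB in run 3. The members, their roles and the pathway lists were chosen with earlier results of these data known, so p-values are adjusted over all genes only. Trp53, Cdkn1a and Mdm2 are given throughout; other members are given in full where they are among the 8 called members with the largest log2 fold change, and at most 2 genes of each pathway list per comparison.

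The batch tag runs with the replicate number, which pairs libraries by the labels: deviations from group means correlated, on average, at 0.195 in same-numbered and -0.0603 in other libraries for untreated long knockdown, 0.184 and -0.0559 with angiotensin II, 0.205 and -0.0653 for PDGF-BB, 0.499 and -0.236 for overexpression and 0.253 and -0.253 for total knockdown. Subtracting the group mean ties the second value of each pair to the first with opposite sign, so only the first describes the pairing. The labels state no test, so the fit without the block is the main one. Between 2 replicates of a group the chi-square per degree of freedom of their counts was 4.22 to 74.6 over 38 pairs. Their counts thus differed by more than counting noise. Separate preparations of 1 culture could differ too, so these values cannot say whether replicates are technical. DESeq2 1.42.0, RLE scaling, testing unfiltered genes, requiring a mean CPM of 1, fits of the compared groups alone, the block, a further limit of 1 on the absolute log2 fold change, leaving out batch P19 and leaving out each library were tried.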

Additional observations from a re-analysis of the deposited data

Results flagged for a closer look

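Over the genes given in full, 61 sets of 4 libraries of a group were checked for a library far from the others, and 1 was found. Aen in control cells with angiotensin II stood at 52.35 CPM in batch P19 and at 43.19 to 44.62 CPM in the other 3 libraries (Dixon ratio 0.844, above the 95% critical value for 4 samples). Chance alone marks about 1 group in 20. The rise of Aen in long knockdown with angiotensin II was called in all fits that left out 1 library.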

How the results depend on the processing

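The genes given in full had 797 values under alternatives (54 gene-by-comparison results). Of these, 725 stayed on their side of the threshold, 54 lost a call and 18 gained one. None of the called values changed sign, and 41 values of uncalled genes did. Lost calls of members not given in full, such as Rrm2b in long knockdown and Bax with PDGF-BB, are not in this tally. Pidd1, Sesn1, Tigar, Perp, Aen and Psrc1 in both long knockdown settings, and Trp53, Pidd1, Plk3, Tnfrsf10b, Xpc and Psrc1 with PDGF-BB, were called in all 15 alternatives that refit the data, which leave out the limit of 1 on the log2 change. Counts of called members that moved by more than 1.5 times are given below, with the count over all genes in brackets. Ranges from leaving out 1 library, and the block for PDGF-BB, are given whether or not they moved that far. For the libraries labelled total knockdown, where 2 (317) were called, DESeq2 gave 10 (719), the replicate block 20 (2209), a log2 change limit of 1 gave 0 (266), no filter 14 (1325), leaving out batch P19 17 (1041) and only the groups compared 14 (1079). Leaving out 1 library gave 0 (4 to 188), and with the block 16 (1343) and 8 (647) without antisense control replicates 1 and 2, and 16 (1594) and 9 (510.0) without the replicates 1 and 2 labelled total knockdown. For overexpression, where 1 (253) was called, DESeq2 gave 3 (807), the block 8 (2721), RLE scaling 0 (245), no filter 2 (1363), leaving out P19 2 (844), or 8 (2587) with the block, and only the groups compared 0 (66). Leaving out 1 library gave 0 to 1 (86 to 867), and with the block 3 (1311), 5 (1284) and 7 (2624) without plasmid control replicates 1 to 3, and 2 (1536), 6 (1647) and 8 (2624) without overexpression replicates 1 to 3. No filter gave 3 (1106) for plasmid against antisense, where 0 (181) were called. For untreated long knockdown, 9 (3783), the block gave 16 (6126), a log2 change limit of 1 gave 1 (773), and leaving out P19 gave 16 (6062), or 17 (6398) with the block. Leaving out 1 library gave 7 to 11 (2889 to 4882), and 13 to 17 (5221 to 6035) with the block. With angiotensin II, 11 (4033), the block gave 17 (6238), or 17 (6381) without P19, and a log2 change limit of 1 gave 1 (809). Leaving out 1 library gave 6 to 11 (3042 to 4880.0), and 16 to 18 (5270.0 to 6083) with the block. For PDGF-BB, 20 (6586), a log2 change limit of 1 gave 2 (1533), the block 26 (8238), and leaving out 1 library 15 to 23 (5601 to 6624). The angiotensin II counts were 0 in every setting. The cause of these shifts was not tested. Leaving out batch P19 removed no antisense control library and none labelled total knockdown. The blocked fits without 1 library or without batch P19 were chosen after the data were seen. Changes of low genes such as Plk3, at 30 or more counts, rest on few reads.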
